A study of Mus musculus with 3 samples.

Results

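The adrenergic receptor genes Adrb1, Adrb3 and Adra2a and the adenylyl cyclase genes Adcy3, Adcy4, Adcy5, Adcy6, Adcy7 and Adcy9 were followed through adipocyte differentiation of 3T3-L1 cells. They are 9 of the 20144 genes named on the array and are read by 13 of its 39429 non-control probes. They were chosen by gene family and, in part, from these same arrays' log2 levels on days 2, 8 and 20 and the differences between them, so those values are described and not tested. 3T3-L1 is an established line of mouse preadipocytes, which a hormone mix can push to become lipid-filled fat cells. Total RNA was collected 2, 8 and 20 days after induction, and the design text names adipocyte hypertrophy as the subject. Each day had 1 sample on 1 Agilent 1-colour array, so the samples hold no replicate spread and no p-value is given. All samples shared the same line, with no genetic change or drug named in the labels used here, and no undifferentiated sample was analysed here, so day 2 is the earliest reference.

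Adrenergic receptors are the cell-surface proteins through which noradrenaline and adrenaline act on fat cells. Beta receptors, which Adrb1 and Adrb3 encode, couple to the stimulatory G protein and switch on adenylyl cyclase, the membrane enzyme that makes cyclic AMP, whereas the alpha-2A receptor encoded by Adra2a couples to inhibitory G proteins and lowers cyclic AMP. Cyclic AMP activates protein kinase A, which in adipocytes drives the breakdown of stored triglyceride. The adenylyl cyclase isoforms differ in what regulates them besides the G proteins, calcium and protein kinases among them.

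A log2 level below is log2 of a probe's processed intensity minus the 75th percentile of the non-control probes of its array, and a difference is the later minus the earlier log2 level. Where a gene had several probes, the brightest by its mean over the arrays was used. A difference was counted as measured where that probe was well above background on both days. Where it was so on 1 day only, the fold is given as a lower bound, taken against the higher of the dim probe's signal and the lowest signal well above background on that array. Where the dim probe's signal was the higher, the fold is a plain difference from that signal, which is said below. Those lowest levels were -5.70, -5.76 and -5.91 on days 2, 8 and 20. Levels of different genes come from different probes and were not set against each other. The error beside a difference is a technical SD, from 305 to 323 probes spotted at least 10 times on each array, taken at like signal. It leaves out the spread between cultures, which 1 sample per day cannot give.

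Between 55.3% and 56.9% of spots on the 3 arrays were well above background, and none was saturated. All 8 adipocyte markers were above background on every day, with a summed processed intensity of 528562 on day 2, 914230 on day 8 and 916077 on day 20. Adipoq, the adiponectin gene, was already above background on day 2 and was higher by 3.83 (log2) on day 8. That was the largest difference of the 8, whose median was 0.68. At least 2-fold higher on day 8 were 3 of the 8, beside 13.8% of all genes, and 0 were lower, beside 12.9%. Much of the rise in the sum from day 2 to day 8 came from Adipoq, at 22193 and 303519. Fabp4 instead read 223261, 207471 and 185526 on days 2, 8 and 20. Of 6 preadipocyte and fibroblast markers, 5 were above background on day 2 and 6 on the later days. Their summed intensity was 35795 on day 2, 25419 on day 8 and 106903 on day 20, most of it from Dlk1 (29439, 20621 and 83041). On the scaled levels these markers went both ways for day 8 against day 2, with Pdgfrb higher by 2.53 (log2) and Ly6a lower at -1.01. For day 20 against day 8, 3 of 6 were at least 2-fold higher, Ly6a by 2.58, Thy1 by 1.81 and Dlk1 by 1.47. The 1 at least 2-fold lower was Cd34 at -1.17, from dim intensities of 69.0 and 44.8. Over all genes the shares were 3.58% and 1.74%. For day 20 against day 2, 4 of 5 measured were at least 2-fold higher and 0 lower, beside 15.5% and 17% of all genes. Of 6 brown adipocyte markers, 3 were above background on day 2 and 4 on the later days, with summed intensities of 1037, 102279 and 114254. Cidea and Cox7a1 among them were higher by 5.69 and 7.62 (log2) on day 8, in the same sample in which Adrb3 was bright, whereas Ucp1 and Dio2 were above background on no day. The macrophage markers Adgre1 and Ptprc, the endothelial markers Cdh5 and Tek and all 4 skeletal muscle markers were above background on no day. The other macrophage markers with a probe, Itgam and Csf1r, the endothelial markers Kdr and Pecam1 and the neuron marker Snap25 were above it on every day. Summed intensities on days 2, 8 and 20 were 5875, 6653 and 4553 for the macrophage list, 3078, 2715 and 2563 for the endothelial list and 4125, 4729 and 2962 for the neuron list. All these sums are of intensities not scaled between arrays. The 75th percentile intensity was 662, 636 and 927 on days 2, 8 and 20. Not every gene read brighter on day 20, as Adipoq went from 303519 on day 8 to 268770. On the scaled log2 levels the median difference of day 20 against day 8 was -0.37 for the adipocyte, 1.15 for the preadipocyte and fibroblast, and -0.09 for the brown adipocyte markers. Fewer cells expressing a gene and less RNA of it per cell cannot be told apart in these samples, and the part of these other cell types' markers in the values below was not tested.

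The gene for the beta-3 receptor went from near background to a bright signal between day 2 and day 8, and it stayed bright. Adcy5, Adcy9 and Adcy3 were each higher on day 8 than on day 2 and higher again on day 20, in much smaller steps. Adcy6 stood nearly level, Adcy7 came above background on day 20 only, and Adcy4 was above it on days 2 and 8 only. Adrb1 stayed at the edge of detection, and Adra2a was above background on no day.

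**Figure D1:**
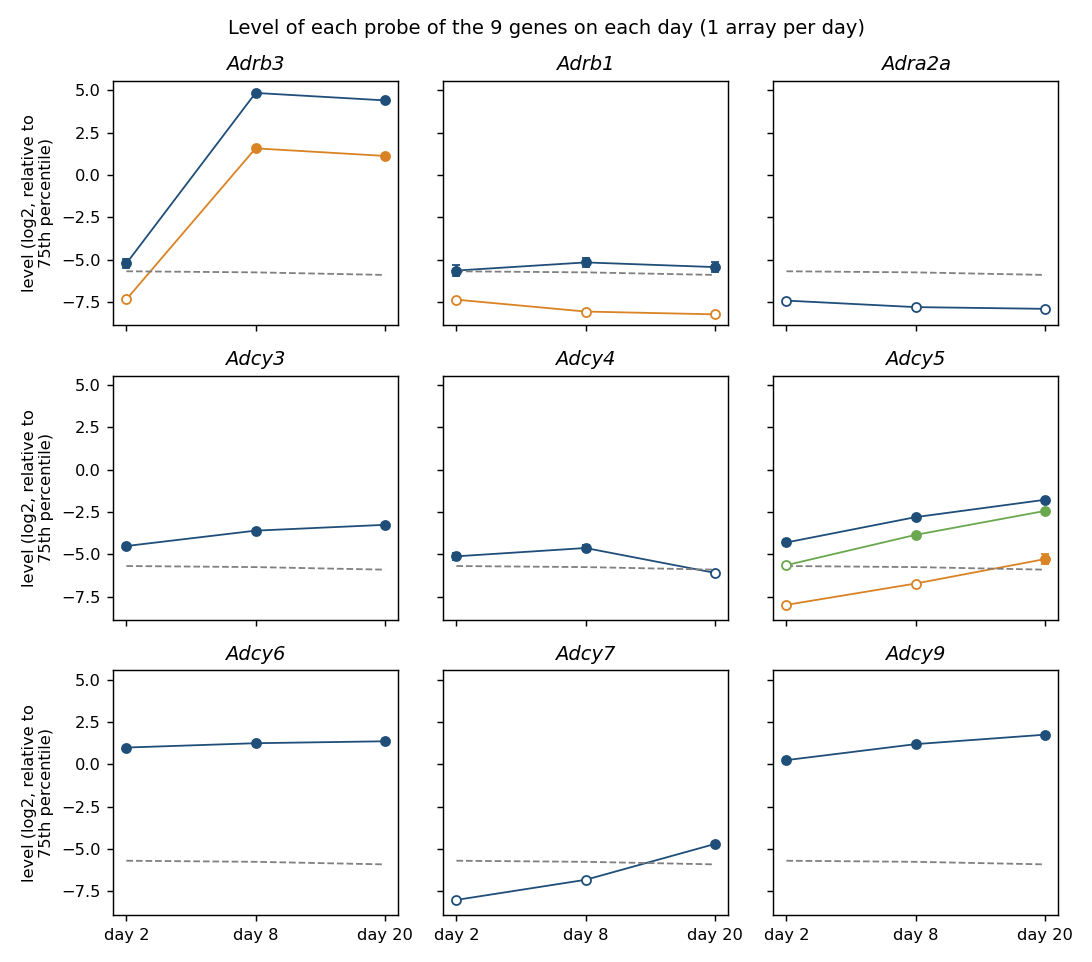
Log2 level (log2 processed intensity minus the array's 75th percentile) of every probe of the 9 genes on days 2, 8 and 20, with 1 array per day, 1 coloured line per probe (blue for the one used) and bars of 1 technical SD, mostly smaller than the points. Filled points were well above background and open points were not, the dashed line joins the lowest level well above background on each array, and the Adrb3 probe in blue goes from -5.23 on day 2 to 4.84 on day 8.

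Adrb3 encodes the beta-3 adrenergic receptor, the beta receptor most typical of rodent adipocytes. Its log2 level was -5.23 on day 2, 4.84 on day 8 and 4.40 on day 20, from processed intensities of 17.6, 18270.1 and 19636.3. The day 2 sample stood alone at the low end, just over the lowest level that counted as well above background, and the later days lay close together at the bright end. Day 8 exceeded day 2 by 10.08 (technical SD 0.27), a 1080.1-fold difference, and day 20 exceeded day 2 by 9.64 (0.27), or 796-fold. Among the 12045 genes measured on both days this difference ranked 2, and Cox8b, not above background on day 2 and so outside that ranking, had a bound of at least 1690.1-fold. Because the day 2 signal was dim, the size of the fold depends on how background is removed: with normexp background correction the day 8 difference was 7.94.

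The 2nd Adrb3 probe was not well above background on day 2, at a log2 level of -7.36, and read 1.57 on day 8 and 1.12 on day 20. It therefore gave only bounds against day 2, of at least 154-fold on day 8 and at least 113-fold on day 20. Between day 8 and day 20 the Adrb3 probes gave like values, -0.44 (technical SD 0.07) and -0.45 (0.07). That small difference is 1.36-fold, and for the used probe its direction turned to 0.22 when the arrays were scaled on spike-in controls instead. A predicted gene, Gm45470, overlaps Adrb3 in RefSeq, and the array values do not say which of them a probe reads.

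Adrb1 encodes the beta-1 receptor, the main cardiac beta receptor and one also found in fat. Its log2 level was -5.65 on day 2, -5.17 on day 8 and -5.45 on day 20, from intensities of 13.2, 17.6 and 21.2. All of these lay just over the lowest level counted as well above background. The day 8 difference of 0.48 was close to its technical SD of 0.42, and day 20 against day 8 gave -0.28 (0.40), with the sign turned under cyclic loess and spike-in scaling. Day 20 against day 2 gave 0.21 (0.43), with the sign turned under normexp. At this signal no difference in Adrb1 between days could be resolved. Its other probe was not well above background on any day.

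Adra2a encodes the alpha-2A receptor, which restrains cyclic AMP production. Its probe read intensities of 3.84, 2.83 and 3.84 on days 2, 8 and 20, none well above background, so no fold is given. The error the scanner software attached to these readings was between 79.3% and 99.7% of the signal. A low level of Adra2a was thus not detectable here, which does not show that the gene was silent.

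The adrenergic receptors outside the 9 genes were read the same way. Of these, Adra1b and Adra1d, whose alpha-1 receptors act mainly through calcium rather than cyclic AMP, were above background on every day. Adra1b read 0.84, 1.23 and 0.91 on days 2, 8 and 20. Adra1d read -1.33, -0.61 and -0.29, and its day 20 level was 1.04 (technical SD 0.08) over day 2, or 2.05-fold, and 0.98 under another scaling. Adra2b was above background on day 2 only, with a bound of at least 1.33-fold lower on day 8, and Adra1a and Adra2c were above it on no day. Bounds of at least 2-fold lower held for 10.9% of the 1238 genes above background on 1 of days 2 and 8, and for 15.5% of the 1288 above it on 1 of days 2 and 20.

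Among the cyclases, Adcy5 showed the largest measured differences in the main setting, though with normexp Adcy9 was ahead for day 8 against day 2 (0.82 and 0.64) and for day 20 against day 2 (1.35 and 1.31). It encodes a cyclase inhibited by calcium and by inhibitory G proteins. Its log2 level was -4.31 on day 2, -2.81 on day 8 and -1.78 on day 20, from intensities of 33.5, 90.9 and 269. Each day stood above the one before. Day 8 exceeded day 2 by 1.50 (technical SD 0.16), which is 2.83-fold, and day 20 exceeded day 8 by 1.02 (0.10), which is 2.03-fold. Over the whole course the difference was 2.52 (0.15), or 5.75-fold. With normexp background correction the steps shrank to 0.64 and 0.67, both under 2-fold, and the whole difference to 1.31.

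The other Adcy5 probes were dimmer and ran the same way. The 2nd probe read -5.64 on day 2, not well above background, then -3.85 and -2.44. That day 2 reading lay over the array's lowest level well above background, -5.70. Its folds against day 2, 3.46 on day 8 and 9.21 on day 20, are thus plain differences from a dim reading, not lower bounds. For day 20 against day 8 this probe gave a measured 1.41 (technical SD 0.14), or 2.66-fold. The 3rd probe was above background on day 20 only, at -5.29, and gave at least 1.39-fold against day 8. So all 3 probes had their highest reading on day 20.

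Adcy9 encodes a widely expressed cyclase known for its weak response to forskolin. Its log2 level was 0.25 on day 2, 1.20 on day 8 and 1.75 on day 20, from intensities of 788, 1457 and 3127. Each step exceeded its technical SD of 0.07: 0.95 for day 8 against day 2, or 1.93-fold, and 0.56 for day 20 against day 8, or 1.47-fold. Day 20 exceeded day 2 by 1.50 (0.07), or 2.83-fold. Signals were well over background on every day, and normexp gave 1.35 for the same difference. With spike-in scaling the last step was 1.22, past 2-fold, and with the percentile taken over detected probes the first step was 1.08.

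Adcy3, first described in olfactory neurons and also present in adipocytes, encodes a cyclase that calcium can stimulate. Its log2 level was -4.51, -3.61 and -3.26 on days 2, 8 and 20, from intensities of 29.0, 52.2 and 96.6. Day 8 exceeded day 2 by 0.91 (technical SD 0.18), and day 20 exceeded day 2 by 1.25 (0.17), or 2.38-fold, which fell to 0.26 with normexp. The last step, 0.34 (0.14) for day 20 against day 8, turned to -0.06 with normexp. Cenpo, a centromere protein gene, overlaps Adcy3 in RefSeq.

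Adcy6 encodes the cyclase closest to that of Adcy5 in sequence and regulation. Its log2 level was 0.99, 1.25 and 1.36 on days 2, 8 and 20, from intensities of 1318, 1513 and 2387. The differences, 0.26 (technical SD 0.07) on day 8 and 0.11 (0.07) for the last step, were small, and day 20 exceeded day 2 by 0.37 (0.07), which became 1.06 with spike-in scaling. The pair thus differed in these samples, with Adcy5 2.83-fold higher on day 8 and Adcy6 under 2-fold.

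Adcy4 and Adcy7 encode cyclases that the beta-gamma subunits of G proteins can stimulate further, and both lay near background. Adcy4 read -5.12 on day 2, -4.63 on day 8 and -6.10 on day 20, the last not well above background, so its day 20 level was at least 2.43-fold lower than on day 8 and at least 1.73-fold lower than on day 2. On the log2 scale the day 8 bound was -1.28, and over the alternative settings it came as close to 0 as -0.57, under 2-fold. The 0.49 (technical SD 0.28) by which day 8 exceeded day 2 turned to -0.06 with normexp. Adcy7 read -8.01 and -6.82 on days 2 and 8, neither well above background, and -4.71 on day 20. It was at least 2.07-fold higher on day 20 than on day 8 and at least 1.98-fold higher than on day 2, bounds that shrank to 0.24 and 0.27 on the log2 scale with normexp. The intensities behind these values were 2.57, 5.62 and 35.5 for Adcy7 and 19.0, 25.6 and 13.5 for Adcy4, so each bound rests on a dim probe. Brd7, a bromodomain gene, overlaps Adcy7 in RefSeq.

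Of the cyclase genes outside the 9, Adcy8 was above background on every day, at -5.04, -5.19 and -5.59, and its steps of -0.15 (technical SD 0.36) and -0.40 (0.41) did not exceed their errors. Adcy1, Adcy2 and Adcy10 were above background on no day.

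**Figure D2:**
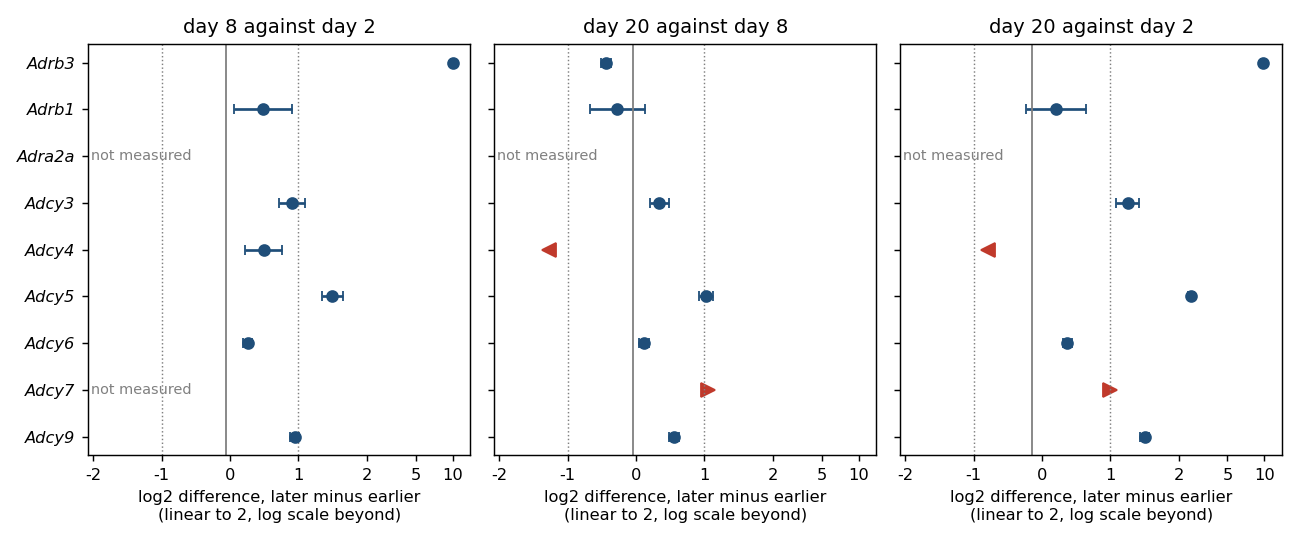
Log2 differences between days for the 9 genes, with bars of 1 technical SD on measured differences, triangles for bounds, dotted lines at 2-fold, a grey line at the median of all genes, and an axis that is linear to 2 and logarithmic beyond. Adrb3 stands at 10.08 for day 8 against day 2, and Adcy5 is the gene past 2-fold in each of the 3 comparisons among the cyclases.

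For day 8 against day 2, 7 of the 9 genes were measured, and 2 of them, Adrb3 and Adcy5, were at least 2-fold higher, beside 13.8% of all 12045 genes measured. None was at least 2-fold lower, beside 12.9% of all genes. The median difference was 0.91 over the 7 genes and -0.06 over all genes. For day 20 against day 8, 6 were measured and 1, Adcy5, was at least 2-fold higher, beside 3.58% of 12321 genes, and 0 were lower, beside 1.74%. The medians were 0.23 and -0.05. Among genes above background on 1 of these days only, Adcy7 had a bound past 2-fold upward and Adcy4 one downward, beside 8.18% and 8.57% of 770 such genes.

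For day 20 against day 2, 6 were measured and 4 were at least 2-fold higher, namely Adrb3, Adcy3, Adcy5 and Adcy9, beside 15.5% of 11889 genes. The 0 that were lower stand beside 17%, and the medians were 1.38 and -0.14. The 3 comparisons share arrays, so they are not independent of each other, and since the genes were chosen with these values in view their counts support nothing further.

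**Figure D3:**
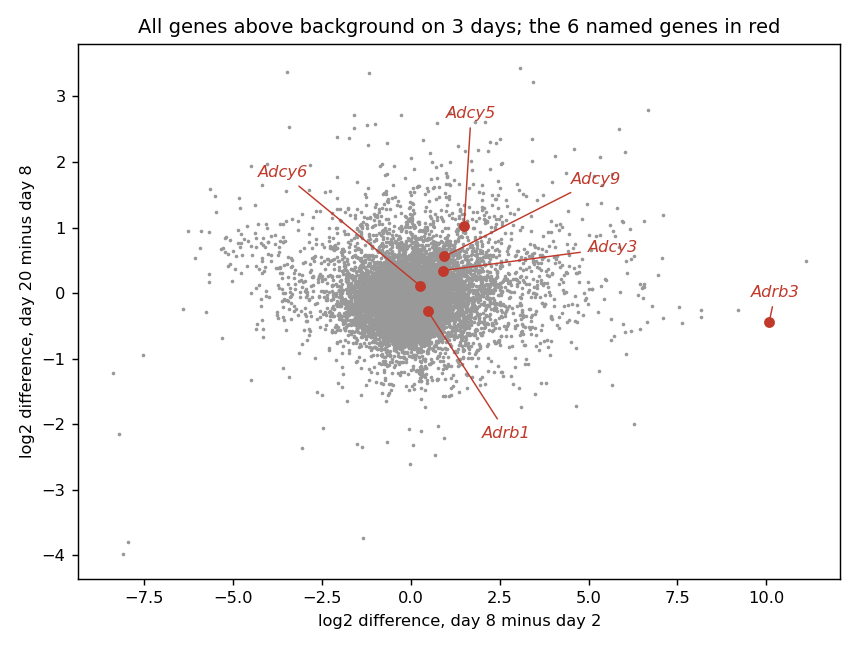
Log2 difference of day 20 against day 8 plotted on that of day 8 against day 2 for the 11810 genes well above background on all days (grey), with the 6 of the 9 genes that met this in colour. Adrb3 lies at 10.08 and -0.44, far to the right of most genes, and Adcy5 at 1.50 and 1.02.

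How usual each course was among the 11810 genes above background on all days was read from the distance between genes in the first and second differences, on the log2 scale. No gene lay within 0.5 of Adrb3, and the nearest was Selenbp1, a selenium-binding protein gene, at a distance of 0.90, with differences of 9.20 and -0.26. Ghrh, the gene of growth hormone releasing hormone, and Itih4, a plasma protein gene, followed at 1.39 and 1.92. The course of Adcy5 was shared by 100 genes within 0.5, Pak1 at 0.09 and Mmp14 at 0.10 among the nearest. That of Adcy9 was shared by 630, nearest Rab43, Etv1 and Klf7, at 0.017, 0.022 and 0.025. The measure uses 3 arrays, and the day 8 array enters both differences with opposite sign, so nearness describes these samples only.

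The stretch of DNA before a gene's start is shown for Adcy5, Adcy9, Adcy3 and Adcy4, which had measured differences or a bound past 2-fold, to let their letters be compared. The sequences are RefSeq's on build GRCm38.p6, the 250 bases before an annotated start, written 5′ to 3′ on the gene's strand, with each GC box (GGGCGG or its reverse complement CCGCCC, the site read by Sp1-type factors) in capitals. The windows are chr16:35154614-35154863 on the plus strand for Adcy5, chr16:4420499-4420748 on the minus strand for Adcy9, chr12:4133147-4133396 on the plus strand for Adcy3 and chr14:55784073-55784322 on the minus strand for Adcy4.
Adcy5: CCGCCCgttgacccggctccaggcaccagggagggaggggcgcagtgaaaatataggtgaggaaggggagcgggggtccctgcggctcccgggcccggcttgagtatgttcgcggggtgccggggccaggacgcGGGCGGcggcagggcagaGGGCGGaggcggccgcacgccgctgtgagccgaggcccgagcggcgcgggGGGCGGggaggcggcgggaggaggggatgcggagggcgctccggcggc
Adcy9: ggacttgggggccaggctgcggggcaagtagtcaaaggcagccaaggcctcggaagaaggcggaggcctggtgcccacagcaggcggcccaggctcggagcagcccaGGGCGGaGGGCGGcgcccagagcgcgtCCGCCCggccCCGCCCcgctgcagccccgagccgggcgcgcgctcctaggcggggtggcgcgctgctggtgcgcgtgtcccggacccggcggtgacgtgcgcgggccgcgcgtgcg
Adcy3: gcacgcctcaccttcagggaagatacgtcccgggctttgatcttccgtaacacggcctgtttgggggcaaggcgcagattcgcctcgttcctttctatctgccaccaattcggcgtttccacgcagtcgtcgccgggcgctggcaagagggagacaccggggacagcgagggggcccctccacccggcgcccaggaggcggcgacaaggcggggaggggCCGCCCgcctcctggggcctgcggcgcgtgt
Adcy4: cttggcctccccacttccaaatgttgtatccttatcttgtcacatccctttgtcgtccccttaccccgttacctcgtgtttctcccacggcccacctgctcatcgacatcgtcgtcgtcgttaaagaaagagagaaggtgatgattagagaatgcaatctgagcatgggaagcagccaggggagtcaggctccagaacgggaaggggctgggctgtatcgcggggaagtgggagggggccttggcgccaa

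The Adcy5 and Adcy9 windows were alike in make-up, with 78% and 78.8% G and C, 32 and 34 CpG dinucleotides and 4 GC box matches each. The Adcy3 window shown had 68.8% G and C, 27 CpG and 1 match, and the window of its other annotated start, not shown, had 56%, 6 and 0. The Adcy4 window had 56% G and C, 13 CpG and 0 matches. The 3 windows of Adcy7, which had an upward bound, had 54% to 56.4% G and C, 3 to 5 CpG and a GC box in 1 of them. Over the 32851 windows of this length in the table the median was 52.4% G and C and 6 CpG. There were 10 windows for 7 of the 9 genes and none for Adrb3 or Adcy6. The median of the 10 was 62% G and C and 17.5 CpG. Of the 10, 6 had a GC box, beside 32.7% of all windows. None of the 10 windows held TGACGTCA, the full cyclic AMP response element, which 1.55% of all windows held. Its shorter form, TGACG or CGTCA, was in 4 of 10, beside 17.8%. The nuclear receptor motif AGGTCA or TGACCT was in 1 of 10, beside 14%, and TATAAA or TTTATA in 1, beside 12.4%. Both strands were searched, and the short response element is part of the full one. These matches describe letters in a window, not binding.

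The receptors reach the cyclases through heterotrimeric G proteins. All 29 subunit genes listed had a probe. For day 8 against day 2, 19 were measured, of which 3 were higher and 1 was lower by 2-fold or more, beside 13.8% and 12.9% of all genes, and the median was -0.01, whose sign turned positive under the other scalings. For day 20 against day 8, 20 were measured and none passed 2-fold, beside 3.58% of all genes higher and 1.74% lower. Gnas, which encodes the stimulatory alpha subunit, read 5.73, 6.09 and 6.18 on days 2, 8 and 20, a difference of 0.45 (technical SD 0.07) over the course. The inhibitory alpha subunit genes Gnai2 and Gnai3 differed by 0.56 and -0.21 from day 2 to day 20.

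Gnb5 and Gng11 were higher on day 8 by 1.06 and 1.08. Gng7 was higher by 1.73 on its brightest probe and by 0.43 on its other probe, so its size is unsure. Gng10 was lower by 2-fold or more on both later days, at -1.18 on day 8 and -1.36 on day 20, the latter -0.67 with spike-in scaling. Gngt2, a gamma subunit best known in cone photoreceptors, was above background on days 8 and 20 only, at least 140-fold and at least 166-fold over day 2. Upward bounds of at least 2-fold held for 25.1% of all genes above background on 1 of days 2 and 8 and for 29.5% on 1 of days 2 and 20. It overlaps Abi3 in RefSeq. Gng3, which overlaps the seipin gene Bscl2, was at least 2.90-fold higher on day 8. Gnaz, an inhibitory alpha subunit gene, was at least 2.10-fold lower on day 20 than on day 2, a bound that shrank to -0.38 (log2) with spike-in scaling.

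Receptor kinases and arrestins switch an active receptor off. Of 7 such genes 6 were measured, and in each comparison with day 2, 1 was at least 2-fold higher and 1 lower, beside 13.8% and 12.9% of all genes for day 8 and 15.5% and 17% for day 20. Arrb1, the gene of beta-arrestin 1, read -0.48 on day 2, 2.01 on day 8 and 2.14 on day 20, a day 8 difference of 2.48 (technical SD 0.07) or 5.59-fold. Its partner Arrb2 gave -0.22 (0.08) for the same days. Grk5, a receptor kinase gene, was lower on day 8 by 2.46-fold, at -1.30 (0.08), and stayed lower on day 20 at -1.18, or -0.49 with spike-in scaling. Grk2, the kinase gene first described for beta receptors, gave -0.62 (0.07) on day 8.

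Cyclic AMP acts through protein kinase A and the exchange factors called Epac. Of 20 effector and anchor genes 17 were measured. On day 8 against day 2, 2 were at least 2-fold higher and 2 lower, on day 20 against day 8, 1 and 0, and on day 20 against day 2, 3 and 3. The shares over all genes were 13.8% and 12.9%, 3.58% and 1.74%, and 15.5% and 17% in the same order. Prkaca, the catalytic alpha subunit of protein kinase A, was higher by 1.55 (technical SD 0.08) on day 8, and Prkacb, the catalytic beta subunit, gave -0.08 (0.07). Prkar2b, the regulatory subunit typical of fat, read 5.71, 5.49 and 5.47. Rapgef3, the gene of Epac1, was higher by 2.22 (0.09) or 4.66-fold on day 8 and by 2.80 or 6.95-fold on day 20. The kinase inhibitor genes Pkib and Pkig were lower on day 8, at -1.08 and -1.22 (-0.95 and -0.98 under the scaling closest to 0), and the 3rd, Pkia, was higher by 1.44 on day 20 than on day 8. Pkia was dim, at intensities of 39.6, 24.3 and 96.0 on days 2, 8 and 20, so the size of that difference is unsure. Among the anchors, Akap12 was higher by 1.69 and Akap8 lower at -1.05 on day 20 against day 2, the latter -0.36 with spike-in scaling.

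**Figure D4:**
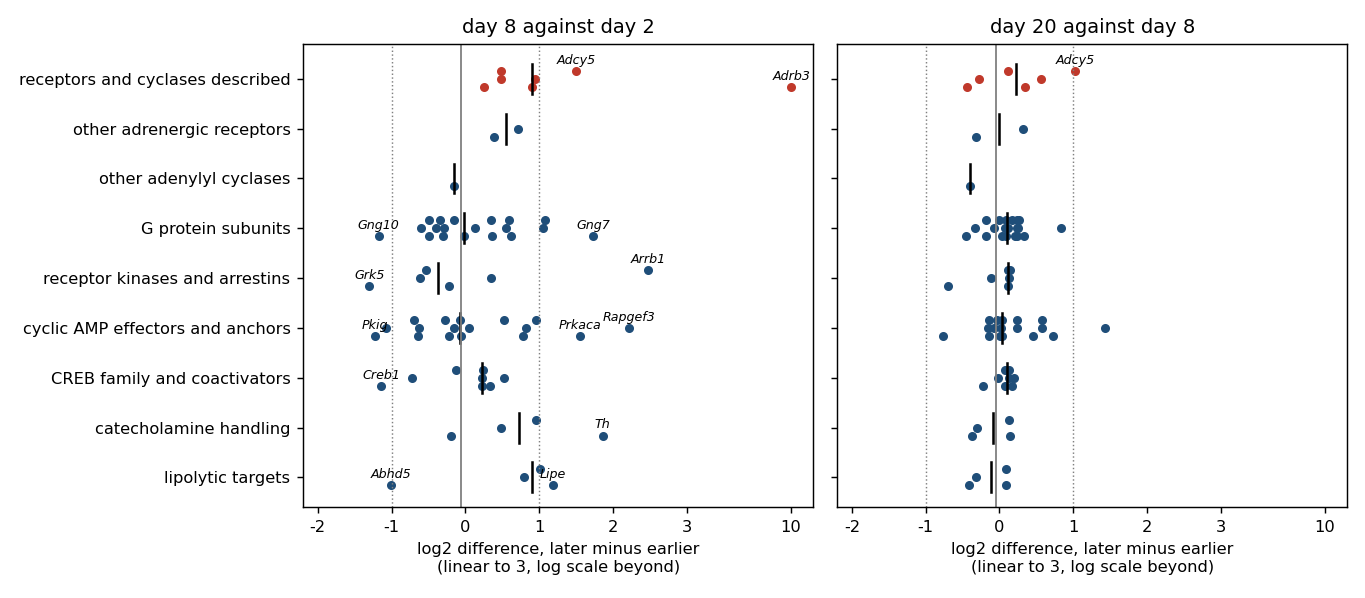
Log2 differences of the measured genes of each pathway group for day 8 against day 2 and day 20 against day 8, with 1 point per gene, a black bar at the group's median, a grey line at the median of all genes and dotted lines at 2-fold. Most points beyond 2-fold lie in the comparison of day 8 with day 2, among them Arrb1 at 2.48 and Rapgef3 at 2.22.

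The 8 genes of the CREB family and its coactivators, which carry the cyclic AMP signal to transcription, were measured on all days. Creb1 was the one past 2-fold, lower on day 8 at -1.14 and on day 20 at -1.07, or -0.38 with spike-in scaling. Beside this 1 of 8, 12.9% of all genes were at least 2-fold lower on day 8 and 17% on day 20, both against day 2. None was at least 2-fold higher, beside 13.8% and 15.5%. The other 7 stayed within 2-fold in every comparison of the main setting. Spike-in scaling took some of them past 2-fold for day 20 against day 2. There it moved the median of the 8 genes from 0.21 to 0.90.

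Of 10 genes of catecholamine synthesis, uptake and breakdown 4 were measured in each comparison. Th, the gene of tyrosine hydroxylase, the rate-limiting enzyme of catecholamine synthesis, read -3.03, -1.16 and -1.47, and day 8 exceeded day 2 by 1.87 (technical SD 0.11) or 3.64-fold. Its day 2 intensity was only 81.1, and the dependence of this fold on background removal was not tested. Maob, a monoamine oxidase gene, was above background on day 20 only, 2.58-fold over day 8. Its dim day 8 reading of -5.50 lay over that array's lowest level well above background, so this fold is a plain difference, not a lower bound. Maoa gave -0.20 on day 8 and -0.06 on day 20 against day 2.

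The 4 genes listed as lipolytic targets of protein kinase A or their partners were measured on all days. Lipe, the gene of hormone-sensitive lipase, was higher on day 8 by 1.19 (technical SD 0.07), and Pnpla2, the gene of adipose triglyceride lipase, by 1.01 (0.06). Abhd5, which encodes the coactivator of that lipase, was lower on day 8 at -1.01 (0.06) and on day 20 at -1.42 (0.07), values that came as close to 0 as -0.78 and -0.73 under the other scalings. Plin1, the gene of the droplet protein that holds this coactivator, gave 0.80 (0.06) on day 8. Pde3b, the phosphodiesterase gene through which insulin lowers cyclic AMP, was higher by 3.94 (0.09) or 15.4-fold on day 8 and by 5.04 or 32.9-fold on day 20, so a gene of cyclic AMP breakdown was higher in the same samples as Adrb3 and Adcy5.

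**Figure D5:**
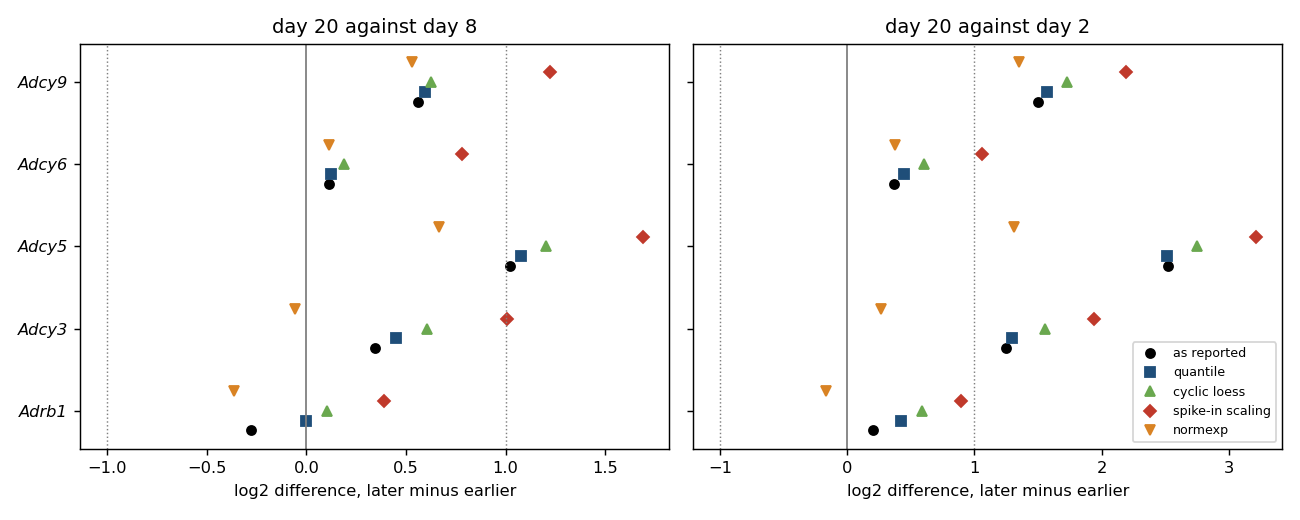
Log2 differences of Adcy9, Adcy6, Adcy5, Adcy3 and Adrb1 for day 20 against day 8 and day 20 against day 2, as reported and with quantile, cyclic loess or spike-in scaling or normexp background correction, with dotted lines at 2-fold. Spike-in scaling puts all 5 genes furthest to the right, and normexp puts all but Adcy6 furthest to the left. Under these settings Adcy5 for day 20 against day 8 stands at 1.69 and 0.67.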

How the data were processed

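RNA from 3 samples, 1 per day, was read on 3 arrays that shared a slide and a scan, per the file headers. The submitters' processing notes name Agilent Feature Extraction 10.7.1.1, and the deposited intensity columns hold its linear brightness readings. Background was already removed from the processed intensity, and no scaling between arrays had been applied, per the file headers. Deposited yes or no marks flag saturated and outlier spots and those well above background. The series table's deposited log2 values were the same readings shifted by -9.37, -9.31 and -9.86 on days 2, 8 and 20 (medians -4.80, -4.69 and -4.89), so its scale, centring and direction are known.

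Control and outlier spots were left out and the spots of a probe averaged. The log2 intensity minus the array's 75th percentile (intensities of 662, 636 and 927) gave the levels. Probes were named by RefSeq accession, and 26581 of 39429 received a gene. With 1 array per day no test was run, and a difference of 1 (log2) or more was counted as at least 2-fold. The precision of a value is limited by the number of arrays. The script was tested on simulated data. Differences were planted only in genes of brighter signal, with the day 2 detection marks used for every day. Differences at dim signal and bounds were therefore not covered.

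The genes and lists were chosen with earlier results of these data known. Every one of the 9 genes was described with all its probes, pathway genes were named where past 2-fold or as family members, and a few others as named partners of these. The 3 nearest genes were named for the 3 genes with the largest span. Some genes that this would name are not reported here. Alternatives were quantile and cyclic loess normalization (limma 3.58.1, R 4.3.3), scaling on 8 spike-in probes, the percentile over detected probes, normexp with offset 50, other filters, the mean over probes and the series table. Normexp used the median spot signal, because the mean spot signal was not among the columns used here. Pathway genes outside the 9 were rerun under the other scalings only, not under normexp. How far their differences depend on background removal was therefore not tested. Dim day 2 intensities among them were 47.1 for Gng7, 81.1 for Th, 86.3 for Pde3b and 100 for Rapgef3.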

Additional observations from a re-analysis of the deposited data

How the results depend on the processing

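No paired analysis was possible because each day had 1 array, and for the same reason no replicate could be left out. For day 8 against day 2 the count of these genes at least 2-fold higher was 2, with 4 when the percentile was taken over detected probes (Adcy3 and Adcy9 added), 1 with normexp (Adrb3) and 1 with a stricter filter, which left 3 genes measured. For day 20 against day 8 it was 1, with 3 under spike-in scaling (Adcy3, Adcy5 and Adcy9), 0 with normexp, 0 with the stricter filter, 2 with no filter and 2 with a looser detection mark (Adcy5 and Adcy7 in both), an alternative chosen after seeing the data. The count lower was 0, with 1 under no filter and 1 under the looser mark (Adcy4). For day 20 against day 2 it was 4 higher, with 2 under the stricter filter (Adrb3 and Adcy9), which tests fewer genes. Beyond the filters' own construction the cause was not tested. The median difference over all genes shifted by 0.66 under spike-in scaling for day 20 against day 8, to 0.62, and by 0.69 for day 20 against day 2, to 0.55. Cyclic loess shifted it by 0.12, 0.15 and 0.28 for day 8 against day 2, day 20 against day 8 and day 20 against day 2. Of all genes past 2-fold, the share higher for day 20 against day 8 was 67.3%, with 83.0% under cyclic loess, 99.0% under spike-in scaling, 34.5% with no filter and 40.5% with the looser mark, and for day 20 against day 2 it was 47.7%, with 59.8% under the percentile over detected probes, 65.0% under cyclic loess and 84.5% under spike-in scaling. Of 60 counts recomputed 49 stayed within 1.5 times, many of them counts of 0 genes lower. Of 204 single values 58 moved beyond their technical SD, or beyond a set margin for bounds, and 6 took the other sign. Some of the 204 could not change. The series table holds the same readings shifted, and no filter or the looser mark leaves a measured difference as it was. Dim signal limits Adrb1, Adra2a, Adcy4 and Adcy7 most.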
